A study of Rattus norvegicus with 9 samples.

Results

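Kidney RNA of 2 hypertensive rat strains was set against that of the Dahl R strain. The 6 arrays of the hypertensive strains, 3 of Dahl S (the Dahl salt-sensitive rat) and 3 of SHR (the spontaneously hypertensive rat), were compared with 3 arrays of Dahl R (the Dahl salt-resistant rat), so that all 9 arrays of the series were used. The strains were assigned from the sample titles. All rats were male, were born on one day, had been weaned at 30 days and then ate a 0.3% salt diet, and kidneys were taken at 53 days, so no group had a high-salt diet. Total RNA, 1 µg per sample, was labelled with Cy3 and hybridised to a one-colour array that probes coding and noncoding transcripts. The labels do not say whether samples came from separate litters or preparations, and p-values therefore reflect only how far these samples spread, which may be technical. Blood pressure is not among the values analysed here, and the comparison has a single resistant strain.

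Dahl S and Dahl R were bred from one stock, the first for a steep rise of blood pressure on salt and the second for resistance to it, while SHR become hypertensive without added salt. The kidney sets blood pressure through sodium reabsorption along the nephron, through the renin-angiotensin cascade and the enzymes that cut its peptides, and through local mediators made from arachidonic acid. Inbred strains also differ at many genes with no part in blood pressure.

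Levels are log2 signals minus the log2 of the 75th percentile of the array, so 0 is the signal at that percentile. A probe was tested where it was well above background on at least 3 of the 9 arrays, which left 16592 probes, 11942 coding and 4650 noncoding. The difference tested is the mean of the Dahl S and SHR means minus the Dahl R mean, in limma, with a threshold of 0.05 on p-values after Benjamini-Hochberg adjustment across every tested probe. Differences are given ± SE, with n = 3 arrays for each strain unless a value was missing. SHR replicate 3 was missing at Cyp2c23, Ephx2, Spp1, Gsta3, Gsta4, RT1-CE5 and RT1-CE16, among others. SHR replicate 3 stood apart: 43.1% of its probes were well above background against 60.1 to 70.3% on the other 8 arrays, its median local background was 88 against 43 to 45, and 7.93% of its spots carried an outlier mark against 1.49 to 2.62%. Arrays that share a scan time in the file headers formed 3 scans: the 3 Dahl S arrays with Dahl R replicate 1, Dahl R replicates 2 and 3 with SHR replicates 1 and 2, and SHR replicate 3 alone. Of 45 measured markers of podocytes and tubule segments, 42 were well above background on all 9 arrays and all 45 on the arrays other than SHR replicate 3.

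Of the tested probes, 665 (4.01%) differed between the hypertensive strains together and Dahl R, 362 higher (2.18%) and 303 lower (1.83%). Dahl S and SHR were called alike where the fitted difference between them was at most 0.5 times the pooled difference, which is a rule on estimates and not a test of equality. It held for 182 probes (1.10% of those tested, and 27.4% of the 665), 105 higher than in Dahl R (0.633%) and 77 lower (0.464%). SHR lay farther from Dahl R in the same direction as Dahl S at 271 probes, and in the opposite direction at 139. Dahl S lay farther at 69 and 4. Taken alone, Dahl S differed from Dahl R at 233 tested probes (1.40%) and SHR at 2165 (13.0%), with the Dahl R arrays shared. Both passed alone, in one direction, at 105 probes, and 81 of these are among the 182. At the rest of the 182, a difference from Dahl R in each strain was not shown separately. In limma, Dahl S alone did not pass at Accsl (adjusted p = 0.117), Pla2g7 (0.0542), Anpep (0.0518), Abcg2 (0.12) or Akr1c14 (0.0732). The same held for Scd2 (0.107), Ugt1a6 (0.152) and Cd8a (0.222), among others. The direct comparison of Dahl S with SHR passed the threshold at 455 of the 665 probes (68.4%; background over all tested probes 15.7%). It passed at 6 of the 182, which were chosen for a small difference between these strains, so this count is a description. The share of higher probes was 57.7% among the 182, and 71.8% of those with the strains alike under normexp background correction. It was 67.7% with the percentile taken over probe means, after outlier-marked spots were dropped.

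**Figure D1:**
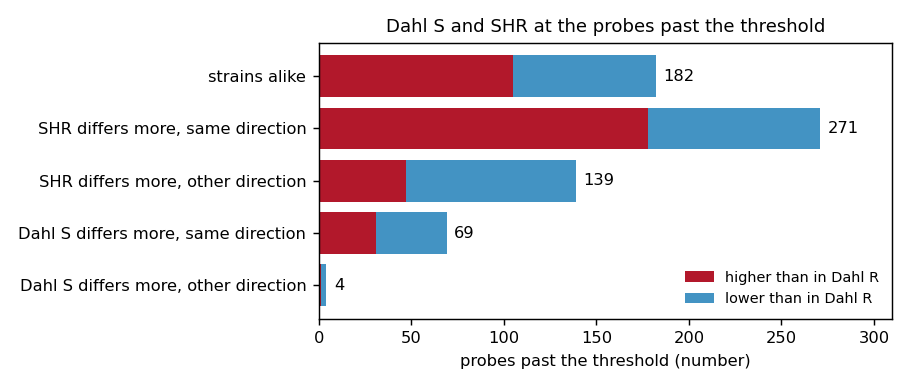
Number of probes past the threshold in the pooled comparison, by how Dahl S and SHR compare with each other; red, higher than in Dahl R; blue, lower. The 182 probes on which the strains are alike are fewer than the 271 on which SHR differs more in the same direction.

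The 95% interval of the Dahl S minus SHR difference lay within 0.5 times the pooled difference for 47 of the 182 probes, so for the others these arrays do not fix how near the strains are. On all 182 the 6 hypertensive arrays did not overlap the 3 Dahl R arrays, which was so for 1545 of all tested probes (9.31%), 1045 higher (6.30%) and 500 lower (3.01%). The threshold and the rule that chose the 182 on these arrays favour such a separation. It is therefore a description, here and for the single genes below. At 18 of the 182, at least 1 value was missing. At least 2-fold differences were found at 69 of the 182, 39 higher and 30 lower. The median size was 0.81 on the log2 scale, against 0.86 for the called probes on which the strains were unlike. Of coding probes, 516 passed (4.32%), with the strains alike at 156 (1.31%); of noncoding probes, 149 passed (3.20%), with the strains alike at 26 (0.559%). Without SHR replicate 3 the comparison gave 2013 probes (12.2% of 16565) and 521 on which the strains were alike, 308 higher and 213 lower, and these took in 175 of the 182. With the 6 arrays treated as a single group, which puts the difference between Dahl S and SHR into the spread, 67 probes passed (0.404%).

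The smallest adjusted p among the 182 was that of Asb3, which encodes an ankyrin-repeat protein with a SOCS box that joins substrates to a ubiquitin ligase. Its level was 0.82, 0.77 and 0.78 on the Dahl S arrays, 0.74, 0.87 and 0.81 on the SHR arrays, and -4.27, -4.34 and -4.60 on the Dahl R arrays. All hypertensive arrays lay close together and far above the Dahl R arrays. The difference was 5.21 ± 0.09 (36.9-fold, adjusted p = 3.76e-07), and Dahl S minus SHR was -0.02 with a 95% interval of -0.26 to 0.23.

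Xdh, xanthine dehydrogenase, which oxidises hypoxanthine and xanthine to urate, was higher in both hypertensive strains. It read -1.44, -1.59 and -1.02 in Dahl S and -2.76, -2.68 and -2.47 in SHR, and was well above background on 0 of the 3 Dahl R arrays, at -8.05, -8.64 and -8.70. The bound on its difference was at least 34.4-fold, and the fitted value 6.47 ± 0.19 (adjusted p = 7.90e-06). For a bound, arrays of the side with none well above background count at their own signal or at the array's faintest probe still well above background, whichever is brighter. Arrays of the other side count at their own signal. A probe with 0 arrays well above background on one side of the pooled comparison passed the filter only through the other side. The p-value of such a probe is therefore not separate support for its difference. Dahl S was the higher of the hypertensive strains, by 1.29 (95% interval 0.79 to 1.79, adjusted p = 0.00739). Fewer cells expressing a gene and less RNA per cell cannot be told apart in whole kidney.

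Resp18, a protein of endocrine secretory granules and a candidate gene for blood pressure in Dahl rats, was higher too. Its levels were 2.36, 2.21 and 2.09 in Dahl S, 1.41, 1.37 and 1.57 in SHR, and -1.97, -1.99 and -2.66 in Dahl R. All hypertensive arrays lay above all Dahl R arrays, with Dahl S the higher of the hypertensive strains by 0.77 (95% interval 0.33 to 1.22, adjusted p = 0.0323). The pooled difference was 4.04 ± 0.17 (16.5-fold, adjusted p = 2.57e-05). Ly6i, a surface protein of the Ly6 family held by a lipid anchor, read 1.04, 1.16 and 0.80 in Dahl S, 0.19, 0.40 and 0.75 in SHR, and -2.39, -2.75 and -2.94 in Dahl R. It was 10.7-fold higher in the hypertensive strains (3.42 ± 0.17, adjusted p = 5.26e-05).

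On the other side, Ly6al, another gene of the Ly6 family, was lower in both hypertensive strains. It read -1.72, -1.54 and -1.62 in Dahl S, -1.70, -1.57 and -1.59 in SHR, and 0.86, 1.35 and 0.97 in Dahl R. All hypertensive arrays lay below all Dahl R arrays, and Dahl S minus SHR was -0.01 (95% interval -0.33 to 0.31). The pooled difference was -2.68 ± 0.12 (6.43-fold lower, adjusted p = 3.11e-05).

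Prcp encodes prolylcarboxypeptidase, which removes the last amino acid of angiotensin II and of other peptides that end after a proline. It read 0.07, -0.35 and -0.16 in Dahl S, -0.85, -1.02 and -2.01 in SHR, and 1.99, 1.72 and 1.78 in Dahl R. Every hypertensive array was below every Dahl R array, with SHR the lower of the hypertensive strains by 1.15 (95% interval 0.47 to 1.82, adjusted p = 0.0348). The pooled difference was -2.55 ± 0.25 (5.86-fold lower, adjusted p = 0.00174), and -2.37 without SHR replicate 3. Homer2, a scaffold protein of glutamate receptor signalling, read -1.30, -1.41 and -1.53 in Dahl S, -2.03, -2.20 and -2.37 in SHR, and 0.46, 0.36 and 0.29 in Dahl R, and was well above background on 2 of the 3 SHR arrays. It was 4.52-fold lower (-2.18 ± 0.10, adjusted p = 3.91e-05), and more so in SHR (Dahl S minus SHR 0.79, adjusted p = 0.00437).

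The 250 bases before the annotated start are shown for Xdh, Asb3, Resp18 and Prcp, 4 of the genes described above. They are RefSeq sequence of the GRCr8 reference assembly, not of the strains studied, and Ly6al has no entry in the promoter table. Capitals mark a CCAAT box or a GC box, whose letters are GGGCGG, on either strand. The letters TATAAA were searched for too, and the marked motifs do not overlap. The windows are chr6:27282069-27282318 on the + strand, chr14:108894201-108894450 on the + strand, chr9:84220187-84220436 on the - strand and chr1:156343644-156343893 on the + strand.
Xdh: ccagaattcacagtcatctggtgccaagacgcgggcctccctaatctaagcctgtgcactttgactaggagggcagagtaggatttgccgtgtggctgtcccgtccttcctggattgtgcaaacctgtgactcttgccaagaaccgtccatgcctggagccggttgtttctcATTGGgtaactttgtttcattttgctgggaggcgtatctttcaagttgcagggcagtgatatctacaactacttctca
Asb3: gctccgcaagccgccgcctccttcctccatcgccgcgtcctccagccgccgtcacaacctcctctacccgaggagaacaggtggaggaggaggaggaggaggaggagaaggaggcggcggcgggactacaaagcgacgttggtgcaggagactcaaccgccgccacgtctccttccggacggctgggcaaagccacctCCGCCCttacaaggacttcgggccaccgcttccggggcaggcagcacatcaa
Resp18: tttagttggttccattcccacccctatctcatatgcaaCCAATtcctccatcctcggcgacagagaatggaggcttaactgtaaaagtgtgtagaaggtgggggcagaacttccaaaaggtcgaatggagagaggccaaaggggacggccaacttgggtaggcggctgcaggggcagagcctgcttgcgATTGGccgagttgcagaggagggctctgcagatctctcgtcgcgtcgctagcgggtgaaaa
Prcp: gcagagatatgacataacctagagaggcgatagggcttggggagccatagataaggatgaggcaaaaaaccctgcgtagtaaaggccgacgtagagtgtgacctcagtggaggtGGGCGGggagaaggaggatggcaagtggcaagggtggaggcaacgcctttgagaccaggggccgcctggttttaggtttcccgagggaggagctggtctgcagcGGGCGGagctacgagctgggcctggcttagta
Xdh had a CCAAT box on the opposite strand 78 bases before the start, and Resp18 had them 212 bases before on its own strand and 61 bases before on the opposite strand. Asb3 had a GC box on the opposite strand 52 bases before the start, and Prcp had GC boxes 136 and 32 bases before. TATAAA was in none of these 4 windows. Among 27457 promoters of this length, 34.3% held a CCAAT box, 32.4% a GC box and 13.1% TATAAA, so the matches are common and describe the sequence only.

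Among the other coding genes that were higher, Clca1, a secreted protein that modulates chloride channels, was well above background on 0 of the 3 Dahl R arrays. Its bound was 6.2-fold higher (4.05 ± 0.36, adjusted p = 0.00103), with 2 of the 3 SHR arrays well above background. Zfp53, a zinc finger protein, was 4.03-fold higher (2.01 ± 0.09, adjusted p = 3.04e-05). Pla2g7, which inactivates platelet-activating factor, was 3.68-fold higher (1.88 ± 0.24, adjusted p = 0.00538). Gna14, a G protein alpha subunit that couples receptors to phospholipase C, was 3.17-fold higher (1.67 ± 0.22, adjusted p = 0.00617), and D2hgdh, a mitochondrial dehydrogenase of D-2-hydroxyglutarate, was 3.09-fold higher (1.63 ± 0.16, adjusted p = 0.00154). Accsl (1.94), Lsamp (1.72), a neural adhesion protein, and C5h8orf34 (1.68) completed the 10 largest rises among genes measured in each strain. The Accsl value of Dahl S replicate 3 was missing. Accsl and Lsamp lost their call without Dahl R replicate 2 and without Dahl R replicate 3, with adjusted p-values up to 0.066 for Accsl and 0.0644 for Lsamp. Both also lost it with normexp background correction and with the authors' deposited values.

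Among the genes that were lower, Siglec5, a lectin that binds sialic acid on leukocytes, differed by -2.42 ± 0.34 (adjusted p = 0.00901), and lost its call without Dahl R replicate 2 and without Dahl R replicate 3. It was well above background on 2 of the 3 arrays of each hypertensive strain. Mief1, which recruits the fission machinery to mitochondria, differed by -1.88 ± 0.18 (3.68-fold lower, adjusted p = 0.0015). Cpne4 (-1.84), a calcium-dependent phospholipid-binding protein, and Ppp2r5e (-1.67), a regulatory subunit of protein phosphatase 2A, were lower as well. Arl4d, a small GTPase, was 3.07-fold lower (-1.62 ± 0.11, adjusted p = 0.000302). Prss35 (-1.52), a protein of the serine protease family, and Cndp1 (-1.42), which cleaves carnosine, closed the list. The Cndp1 value of SHR replicate 3 was missing, and its fit used the other 8 arrays.

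**Figure D2:**
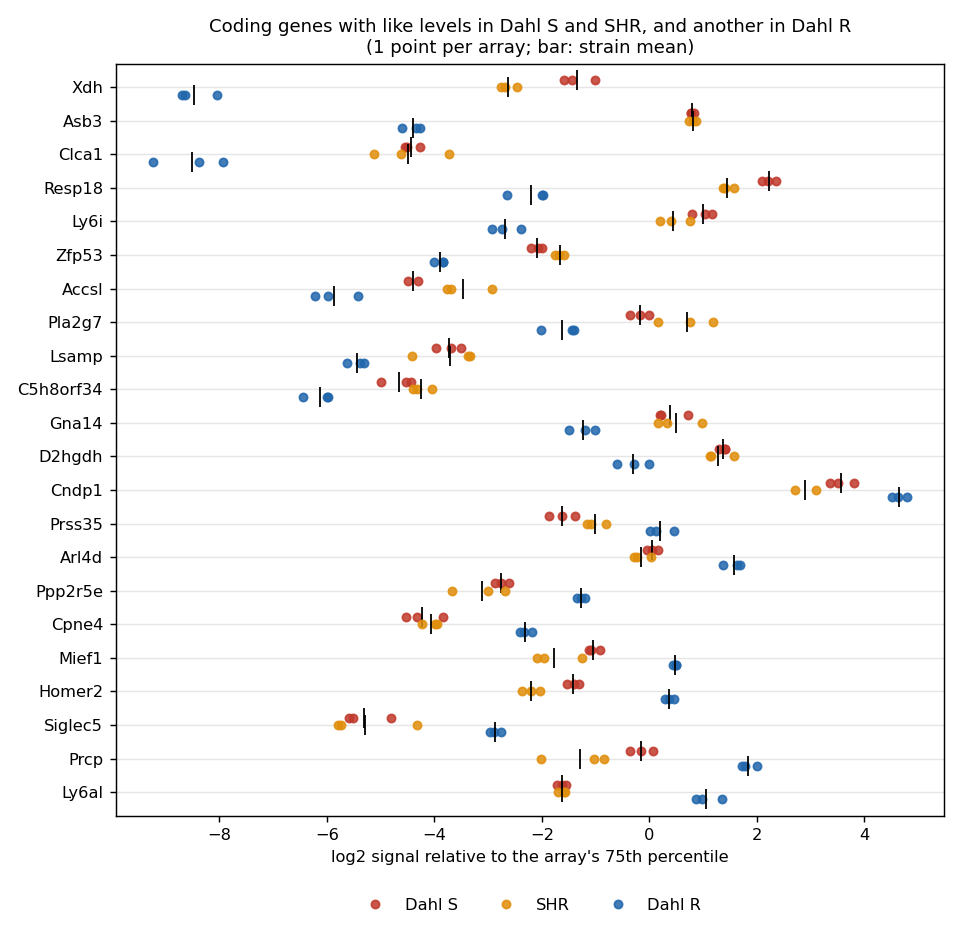
Levels of 22 coding genes on each array (log2 signal minus the log2 of its 75th percentile; 1 point per array, bars the strain means): Dahl S red, SHR orange, Dahl R blue. In each gene the 3 Dahl R arrays lie apart from the arrays of both hypertensive strains; the Dahl S and SHR means of Ly6al differ by -0.01 and those of Asb3 by -0.02.

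Other genes on which the strains were alike were picked after their values were seen, and were not refitted under the alternatives. Calcr, the calcitonin receptor, was higher by 1.23 ± 0.08 on one probe and 1.28 ± 0.13 on another (adjusted p = 0.000196 and 0.00174). Nes, the intermediate filament nestin, which podocytes make, was higher by 1.20 ± 0.08 (adjusted p = 0.00032), with Dahl S between 0.79 and 1.01, SHR between 0.84 and 1.00, and Dahl R between -0.31 and -0.22. Bmpr1b, a receptor for bone morphogenetic proteins, was higher by 0.98 ± 0.09 (adjusted p = 0.00104), and Npy1r, a receptor of neuropeptide Y, by 0.85 ± 0.12 (adjusted p = 0.00985). Guca2b, uroguanylin, a peptide that raises sodium excretion, differed by -0.85 ± 0.12 (adjusted p = 0.00729). Its levels were -0.62 to -0.34 in Dahl S, -0.65 to -0.31 in SHR and 0.22 to 0.47 in Dahl R.

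Differences were also taken within scans, as 3 Dahl S arrays minus Dahl R replicate 1 in the first and SHR replicates 1 and 2 minus Dahl R replicates 2 and 3 in the second. The scans share no array, but their arrays are those that chose the 182, so the values are a description with no test. Of 16515 probes, 203 (1.23%) were higher by at least 1 on the log2 scale in the first scan and 498 (3.02%) in the second, and 51 in both, which is 25.1% of the first and 10.2% of the second; 34 of the 51 belong to the 182. Lower by at least 1 were 428 (2.59%) and 805 (4.87%), and 71 in both, 16.6% and 8.82% respectively, with 24 among the 182. Asb3 differed by 5.06 in the first scan and 5.28 in the second, Ly6al by -2.49 and -2.80, and Prcp by -2.14 and -2.69. The Xdh values, 6.70 and 5.95, are set against Dahl R signals below background.

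**Figure D3:**
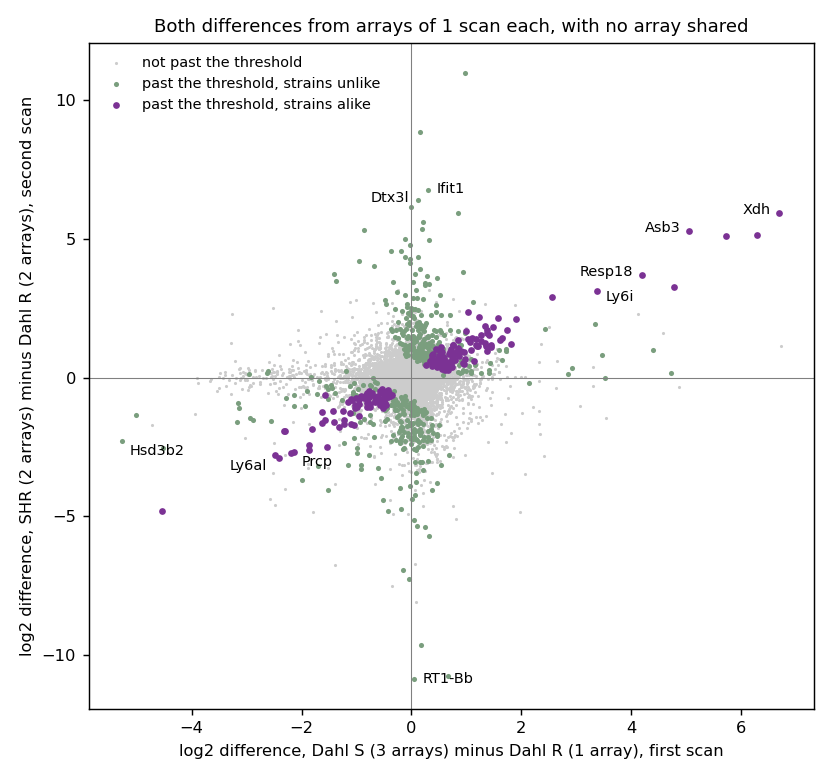
Each point is a probe: the log2 difference Dahl S minus Dahl R in the first scan (x) against SHR minus Dahl R in the second (y), from arrays that are not shared; purple, past the threshold with the strains alike; green, past the threshold with the strains unlike; grey, not past the threshold. Xdh, at 6.70 and 5.95, and Asb3, at 5.06 and 5.28, lie near the diagonal, while Ifit1, Dtx3l and RT1-Bb lie near the vertical axis.

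Noncoding probes are named as in the files, which give no function for them. MRAK038897 was well above background on 0 of the 3 Dahl R arrays, at -7.51, -7.29 and -7.42, and read -2.02, -1.64 and -1.65 in Dahl S and -2.05, -2.45 and -1.51 in SHR. It was at least 37.1-fold higher in the hypertensive strains (fitted difference 5.52 ± 0.20, adjusted p = 1.69e-05). MRFT35653 was likewise well above background on 0 of the 3 Dahl R arrays, and on 2 of the 3 SHR arrays. Its bound was 15.3-fold higher (5.46 ± 0.24, adjusted p = 3.11e-05). MRAK052755 was measured in every strain, at -1.25, -1.57 and -1.77 in Dahl R, and was 7.59-fold higher (2.92 ± 0.20, adjusted p = 0.000273).

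Of the named noncoding probes that were lower, BC161882 had the smallest SE. Its level was 0.04, 0.12 and 0.12 in Dahl S, 0.20, 0.19 and 0.02 in SHR and 1.72, 1.79 and 1.89 in Dahl R, a difference of -1.68 ± 0.08 (3.21-fold lower, adjusted p = 4.07e-05). BC088202 differed by -2.52 ± 0.40 (adjusted p = 0.0137) and lost its call without any one of the 3 Dahl R arrays. BC159438 differed by -1.93 ± 0.21 (adjusted p = 0.00273). BC158594 was well above background on 0 of the 6 hypertensive arrays, and was at least 6.03-fold lower than in Dahl R (adjusted p = 0.0363). SHR replicate 3 read -4.58 on it against -8.80 to -7.75 on the other hypertensive arrays; the difference was -4.05 with that array and -4.68 without it. Its call was lost without any one Dahl S array or SHR replicate 1. Without any one Dahl R array it had too few arrays well above background to be tested. The smaller noncoding differences were MRNR_003508 (1.77), XR_009344 (1.32), MRAK083095 (0.91), DQ266363 (0.86), MRAK016990 (-0.89) and AF187814 (-0.84). MRAK083095 lost its call without Dahl R replicate 2 or 3, AF187814 without Dahl R replicate 1 or 2, and MRAK016990 was at 0.019 with normexp background correction.

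**Figure D4:**
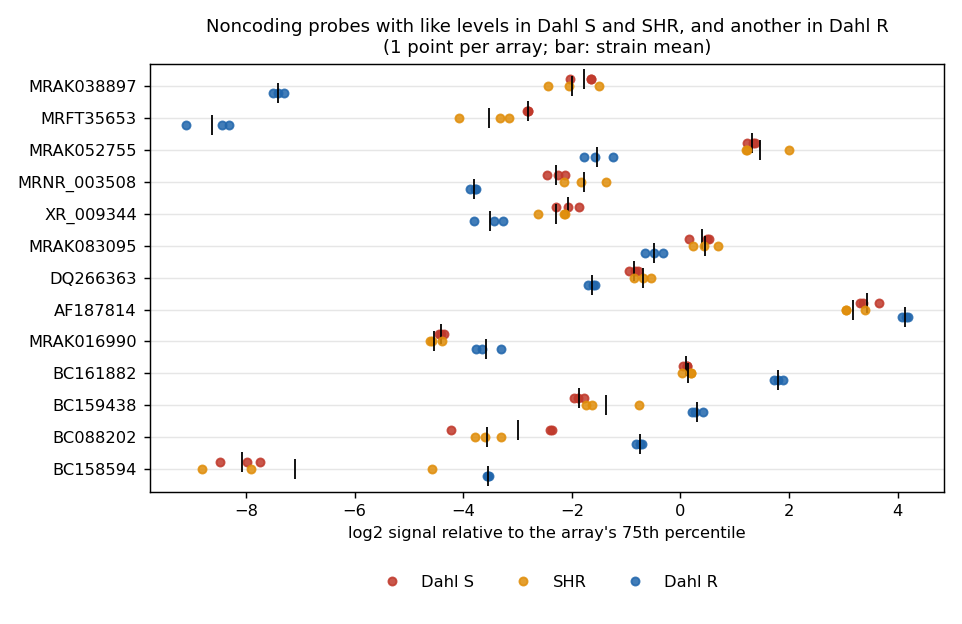
Levels of 13 noncoding probes on each array, as log2 signal minus the log2 of its 75th percentile (Dahl S red, SHR orange, Dahl R blue; bars the strain means). MRAK038897 and MRFT35653 lie at -7.29 or below on all Dahl R arrays, and BC161882 shows 0.02 to 0.20 on the hypertensive arrays against 1.72 to 1.89 in Dahl R; SHR replicate 3 is the high SHR point of BC158594.

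Pathway lists are described by counts beside the background of 4.01% and a median over all tested probes of 0.05. In the renin-angiotensin list 12 genes were measured, 1 rose and 2 fell, and the median was -0.12. Of these, the strains were alike at Prcp, above, and at Anpep, aminopeptidase N, which trims angiotensin III. Anpep read 6.41, 6.26 and 6.07 in Dahl S, 6.31 and 6.58 in SHR, and 5.47, 5.51 and 5.56 in Dahl R (0.83 ± 0.11, adjusted p = 0.0114), with SHR replicate 3 missing. Its call was lost without any one Dahl R array. Agt, the angiotensinogen from which the peptides are cut, passed at -0.69 (adjusted p = 0.0469), but Dahl S minus Dahl R was 0.01 and SHR minus Dahl R -1.40, and the call was lost without any one Dahl S or Dahl R array.

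Of 13 purine and urate genes, 1 rose and 2 fell (median 0.00). Beside Xdh, Abcg2, which exports urate, fell with the strains alike, at -0.47 ± 0.09 (adjusted p = 0.0286). Its levels were 4.06, 3.98 and 4.04 in Dahl S, 3.84, 3.89 and 4.12 in SHR and 4.55, 4.38 and 4.45 in Dahl R, but its call was lost without any one of 8 arrays, SHR replicate 3 being the exception. Slc17a3, a phosphate and urate transporter, differed by -0.12 in Dahl S and by -4.55 in SHR. Hprt1, which salvages hypoxanthine, was at 0.00 (adjusted p = 0.999).

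Among 19 genes of steroid metabolism, 2 rose and 3 fell. The strains were alike at both that rose. Hsd17b2, which oxidises estradiol and testosterone to weaker forms, was 2.39-fold higher (1.26 ± 0.16, adjusted p = 0.00617), with levels of -0.01 to 0.26 in Dahl S, 0.07 to 0.64 in SHR and -1.28 to -0.76 in Dahl R. Akr1c14, a 3-alpha-hydroxysteroid dehydrogenase, was 1.73-fold higher (0.79 ± 0.14, adjusted p = 0.0237), a call lost without any one Dahl R array. Hsd3b2, Cyp2c11 and Sult1c3 fell with the strains unlike. Hsd3b2 was well above background on 0 of the 3 Dahl S arrays, where it was at least 10.5-fold lower than in Dahl R, and the difference in SHR was -1.93, with 2 of the 3 arrays well above background. Cyp2c11 lost its call without any one Dahl R array, and Sult1c3 without Dahl R replicate 2. Hsd3b2 is also a marker of the adrenal cortex: of the 8 measured markers of that tissue it was the only one past the threshold, and Akr1b7, at 4.13, was not (adjusted p = 0.0735). The summed level of these markers was 3.89 to 3.99 in Dahl R, 3.58 to 3.85 in Dahl S and 3.52 to 3.73 in SHR. The part of adrenal tissue in these steroid genes was not tested.

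Without SHR replicate 3, where the background over all tested probes was 12.2%, counts of several lists rose by more than 1.5 times and are given beside them. Of 31 genes for sodium and electrolyte transport, 1 rose and 1 fell (median 0.14), and 6 and 2 without SHR replicate 3 (background 12.2%). Slc4a1, the chloride-bicarbonate exchanger of acid-secreting cells and red cells, rose with the strains alike (0.68 ± 0.12, adjusted p = 0.0287, SHR replicate 3 missing; call lost without any one Dahl S or Dahl R array or SHR replicate 1), while Slc5a1, a sodium-glucose cotransporter, fell with a difference of -0.06 in Dahl S and -0.84 in SHR. The Slc5a1 call was lost without Dahl S replicate 2 or 3, any one Dahl R array or SHR replicate 2. Arachidonate enzymes gave 2 rises and 2 falls among 21 genes (6 and 3 without SHR replicate 3), and none with the strains alike; Ephx2, which hydrolyses epoxides of arachidonic acid, differed by 0.06 in Dahl S and 3.96 in SHR. The interferon list gave 3 rises and 1 fall among 28 genes. Ifih1, a sensor of double-stranded RNA, was the member with the strains alike (0.59 ± 0.08, adjusted p = 0.0066; 0.0583 without Dahl R replicate 2), whereas Dtx3l differed by 0.20 in Dahl S and by 6.45 in SHR. Ifit1 was well above background on 0 of the 3 arrays of Dahl S and of Dahl R, and was at least 112-fold higher in SHR than in Dahl R.

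Of 28 candidate genes for rat hypertension, 3 rose and 3 fell, and the strains were alike at Resp18 and Prcp. At Sorcs2, Cd36 and Ephx2, Dahl S minus Dahl R was 0.06, 0.00 and 0.06, and SHR minus Dahl R was -1.92, -2.46 and 3.96. Conjugating enzymes had the lowest median of the pathway lists, -0.39, with 2 rises and 5 falls among 18 genes (4 and 9 without SHR replicate 3); Ugt1a6, a glucuronosyltransferase, fell with the strains alike (-0.49 ± 0.10, adjusted p = 0.0455, SHR replicate 3 missing). This call was lost without any one array other than SHR replicate 3. Of 33 genes of lipid and fatty acid metabolism 1 rose and 1 fell (5 and 2 without SHR replicate 3). Scd2, a fatty acid desaturase, rose with the strains alike (1.01 ± 0.16, adjusted p = 0.0122), a call lost without Dahl R replicate 1 or 3. Cd36, which takes up fatty acids, fell, and lost its call without any one Dahl R array. No member of the lists for matrix and fibrosis (24 genes) or the circadian clock (13 genes) passed in limma; 4 in each had an unadjusted p under 0.05, and 3 and 1 passed without SHR replicate 3 (background 12.2%).

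The remaining lists held few or no genes with the strains alike. Of 27 kidney injury genes 3 rose (7 rose and 1 fell without SHR replicate 3, background 12.2%), among them Spp1, osteopontin, which differed by 1.34 in Dahl S and 0.12 in SHR. Of 20 genes of the nitric oxide, cyclic GMP, natriuretic and endothelin systems 1 rose (1 rose and 2 fell without SHR replicate 3), Prkg2, a cyclic GMP-dependent kinase. Prkg2 was well above background on 0 of the 3 Dahl R arrays and 1 of the 3 SHR arrays. Its excess over Dahl R was at least 10.6-fold in Dahl S. It read -6.29, -8.16 and -4.61 in SHR and -8.08, -8.34 and -8.12 in Dahl R. SHR minus Dahl R did not pass in limma (adjusted p = 0.16). Antigen presentation gave 3 rises and 1 fall among 20 genes, and its fall was RT1-Bb, a class II chain, with 0.26 in Dahl S and -9.83 in SHR, where it was well above background on 1 of the 3 arrays. Glutathione and antioxidant genes gave 1 rise and 3 falls among 38 (4 and 6 without SHR replicate 3), and the falls were the glutathione transferases Gsta2 (-0.62), Gsta3 (-0.59) and Gsta4 (-0.50). Of 20 transporters of organic ions and drugs, Abcg2 alone passed (1 rose and 5 fell without SHR replicate 3), and of 21 immediate early and heat shock genes Dusp1, a phosphatase of MAP kinases, rose (0.49; 4 rose and 1 fell without SHR replicate 3). The calls of RT1-Bb, Gsta3 and Dusp1 were lost without any one Dahl R array. Gsta3 also lost it without Dahl S replicate 3, and Dusp1 without Dahl S replicate 2. Gsta2 lost its call without Dahl S replicate 2 or 3 or Dahl R replicate 1 or 3. Spp1 and Gsta4 lost theirs without Dahl S replicate 2 or 3 or any one Dahl R array. Spp1 also lost it without SHR replicate 2, and Gsta4 without SHR replicate 1. Prkg2 lost its call without any one Dahl S or Dahl R array or SHR replicate 1. None of these calls was lost without SHR replicate 3.

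**Figure D5:**
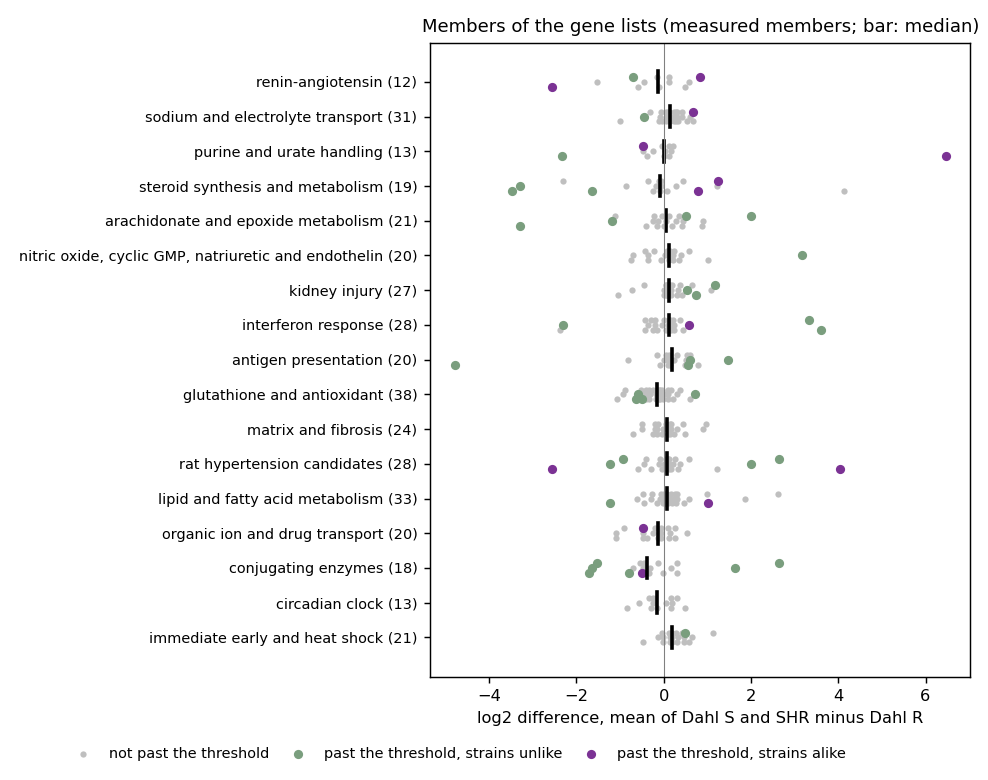
Difference between both hypertensive strains and Dahl R (log2) for measured members of each pathway list, with the number measured in parentheses; 1 point per gene, black bars the list medians; purple, past the threshold with the strains alike; green, past the threshold with the strains unlike; grey, not past it. Conjugating enzymes have the lowest median, -0.39, and Xdh, below background in Dahl R, is the rightmost point, at 6.47.

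Markers of cell types were checked in the same way. In limma no marker passed among 9 for podocytes, 14 for proximal tubule, 7 for endothelium, 5 for vascular smooth muscle, 9 for fat cells and 8 for dividing cells. An unadjusted p under 0.05 was found for 1, 4, 2, 4, 2 and 2 of them, and 2, 2, 1, 1, 1 and 0 passed without SHR replicate 3 (background 12.2%). Of 9 markers of the thick ascending limb and distal tubule, Trpv5, a calcium channel, and Cldn16, a tight junction protein, passed with the strains unlike: Trpv5 differed by -0.24 in Dahl S and 2.22 in SHR, and Cldn16 by 0.02 and -1.29. The Trpv5 call was lost without Dahl S replicate 2 or Dahl R replicate 1 or 3, and that of Cldn16 without Dahl S replicate 2 or 3, any one Dahl R array or SHR replicate 2. Of 9 blood cell markers, Slc4a1 rose, and Hba-a3, an alpha globin, was well above background on 0 of the 3 SHR arrays, where it was at least 193-fold lower than in Dahl R, against a difference of 0.54 in Dahl S. Of 5 liver markers, Cyp2c11 fell (1 rose and 2 fell without SHR replicate 3). Collecting duct markers had the highest median of the marker lists, 0.55, with 13 measured from 0.03 to 0.71, of which 3 passed: Slc4a1, Atp6v1g3, a proton pump subunit of acid-secreting cells (0.55 ± 0.11, adjusted p = 0.0307), and Elf5. Without SHR replicate 3, 8 passed (background 12.2%), all higher. Their summed level overlapped between Dahl R, at 7.90 to 8.15, and Dahl S, at 8.03 to 8.29. In SHR it was 8.69 and 8.31 on replicates 1 and 2, and 7.46 on replicate 3. Slc4a1 was missing on SHR replicate 3, and a missing value adds nothing to a sum. The summed level of vascular smooth muscle markers did not overlap, at 5.81 to 5.85 in Dahl R, 6.07 to 6.19 in Dahl S and 6.01 to 6.20 in SHR. The differences of its 5 members ranged from -0.06 to 0.40. Among single tested probes, 9.31% showed no such overlap. That of liver markers was higher in Dahl R, at 1.95 to 2.36, than in Dahl S, at -0.94 to 0.50, or in SHR, at 0.13 to 1.53. Cyp2c11 alone read 1.79, 2.16 and 1.62 in Dahl R and made up most of these sums. Its call was lost without any one Dahl R array, and the differences of the liver markers ranged from -3.30 to 0.66. Those of the other marker lists overlapped between the 6 hypertensive arrays and the 3 Dahl R arrays, apart from the adrenal cortex markers above. Sums of pathway lists are not compared here. Cd8a, of T cells, was the 1 of 17 leukocyte markers that passed (-0.77 ± 0.16, adjusted p = 0.043). The calls of Cd8a, Elf5 and Hba-a3 were lost without any one array other than SHR replicate 3, and that of Atp6v1g3 without any one Dahl S array, Dahl R replicate 1 or 2, or SHR replicate 1. The part of cell composition in the differences above was not tested.

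Some genes with the strains alike lay beside each other in the GRCr8 gene order. Of 145 such genes placed among the tested genes, 18 (12.4%) had another as the next tested gene, against 268 of 10704 other genes (2.50%) that were next to one. They formed 9 pairs, and the members of 5 pairs differed in one direction. Clca1 rose beside Clca4 (1.29), Ly6i beside Ly6c (0.44), and Akr1c14 beside Akr1c15 (1.52). Grifin (1.28) rose beside Chst12 (0.73), and Ugt1a9 (-0.54) fell beside Ugt1a8 (-0.49), a gene of the same family. In other pairs the neighbours went opposite ways: Zfp53 rose and Zfp54 fell (-1.42), Asb3 rose and Chac2 fell (-0.60), and Arl4d fell while Meox1 rose (1.24). Probe sequences were not analysed here, and whether probes of related neighbours resemble each other, or match the 3 strains equally well, was not tested.

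For 6 genes of the set more than 1 probe was tested, and the differences of all probes of each gene had one sign. Of Calca, Cdkn1c and Wls, only 1 probe each passed in limma. The adjusted p-values of the others were 0.127 and 0.436 for Calca, 0.0518 and 0.113 for Cdkn1c, and 0.0834 for Wls. The strains were alike on every probe of Calcr, of Mfge8, a secreted protein that bridges dying cells to phagocytes (0.58 and 0.56), and of Ugt1a6 (-0.49 and -0.50). At the limit of 0.5, the ratio of the Dahl S minus SHR difference to the pooled difference was 0.495 for Cldn15, 0.497 for the probe of NM_013111.2 and 0.499 for Akr1c15, just inside. It was 0.505 for Hsd17b1, 0.506 for Dok4 and 0.509 for Ebpl, just outside. With a limit of 0.25 the set held 103 probes, and with a limit of 1 it held 287.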

How the data were processed

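The authors deposited 1 scanner file for each array; the software was Agilent Feature Extraction, version 10.5.1.1, per the submitters' processing notes. The deposited processed signal is an intensity which, per the file headers, was background-subtracted, detrended and floored within the array, without scaling across arrays; the median signal and its local background are uncorrected intensities. A deposited table of 19407 probes, used as an alternative, was read as log2 because its columns correlated with the scanner log2 values at r = 0.970 to 1.00; how the authors normalized it is not stated.

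Control spots (1417 of 43553) were left out, and 0 spots were saturated. The remaining 42136 spots carried 24684 probes, 15365 taken as coding and 9319 as noncoding from their names; 14274 coding probes were matched to a symbol through RefSeq (GRCr8), and 1091 were not. The log2 of the array's 75th percentile was subtracted from the log2 processed signal, outlier-marked spots were set to missing, and spots of a probe were averaged. A probe was well above background where at least 0.5 of its spots were. Tests used limma 3.58.1 in R 4.3.3, checked on simulated data, with strain as the only term over all 9 arrays; the number of arrays limits the precision. For a gene with several probes, the probe with the highest mean stood for it.

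The genes named are the 10 largest differences in each direction among coding genes with the strains alike that were measured in each strain, up to 6 each way below background on one side, the 5 and 3 largest of the same kinds among noncoding probes, every list member past the threshold in the counts (some list members are not reported here), and the 3 on either side of the limit. The members and lists were chosen with earlier results of these data known. Alternatives were other background corrections, normalizations, filters, blocks and each array left out.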

Additional observations from a re-analysis of the deposited data

Results flagged for a closer look

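SHR replicate 3 lay far from the other 5 hypertensive arrays in median local background (88), in percent of spots marked as outliers (7.93) and in percent of probes well above background (43.1). Its level was also far from the other 5 for Ppp2r5e (-3.67), MRAK052755 (1.99), BC159438 (-0.76) and BC158594 (-4.58). Such a gap was looked for in 52 sets of values from the hypertensive arrays, and chance gives it in about 1 in 20.

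Dahl S and SHR differed from each other, by limma with Benjamini-Hochberg adjustment, at named genes past the threshold against Dahl R. Among those with the strains alike by the rule, Dahl S minus SHR on the log2 scale was 0.77 for Resp18, -0.42 for Zfp53, 1.15 for Prcp, 0.79 for Homer2 and 1.29 for Xdh. Among the other named genes, Dahl S was higher than SHR at Agt (1.40), Slc5a1 (0.78), Slc17a3 (4.43), Sult1c3 (1.54), Cyp2c23 (0.61), Spp1 (1.22), Fgg (1.32), RT1-Bb (10.08), Sorcs2 (1.98), Cd36 (2.46), Ugt2b7 (2.63), Sult1c2 (1.75), Cldn16 (1.31), Hba-a3 (9.80), Hsd17b1 (1.13) and Ebpl (0.60). Dahl S was lower than SHR at Hsd3b2 (-3.11), Cyp2c11 (-2.59), Ephx2 (-3.90), Ptgs1 (-0.64), Il18 (-0.76), Mx2 (-1.44), Ifit1 (-7.14), Dtx3l (-6.25), RT1-CE5 (-2.87), RT1-CE16 (-1.09), Tap1 (-0.85), Gstm2 (-0.49), Gsta4 (-0.39), Ugt2a1 (-5.01), Dusp1 (-0.35), Trpv5 (-2.46) and Elf5 (-0.64). Some of these values are set against signals below background and are not measured differences. Hba-a3 was well above background on 0 of the 3 SHR arrays and RT1-Bb on 1, and Dahl S was at least 280-fold higher at Hba-a3. Ifit1, Ugt2a1 and Hsd3b2 were well above background on 0 of the 3 Dahl S arrays. Dahl S was at least 67.1-fold lower than SHR at Ifit1 and 16.9-fold at Ugt2a1. The Hsd3b2 bound was 2.76-fold, with 2 of the 3 SHR arrays well above background.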

How the results depend on the processing

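The 665 probes past the threshold and the 182 with the strains alike stayed within 1.5 times under quantile normalization, the authors' deposited values, outlier-marked spots kept and a filter of 6 arrays. Fewer passed with normexp background correction (115 and 39), no filter on dim probes (326 and 91) and the 6 arrays as 1 group (67 and 66). Fewer also passed (108 and 31) with a percentile over probe means, taken after outlier-marked spots were dropped. That percentile counts each probe once, so it changes the weight of probes too. More passed with array weights (3125 and 749) and with the scan as a block (1480 and 379), in which SHR replicate 3 has a term of its own and drops out. Normexp and the percentile over probe means moved the median of all tested probes from 0.05 to 0.15 and 0.17. With no filter the median was 0.17, but over 24658 probes, as dim ones were added and no value changed. The share of higher probes among those with the strains alike was 57.7% at first, 71.8% with normexp and 67.7% with that percentile. Requiring each strain to pass alone, in one direction, gave 105 probes, 81 of them among the 182. The limits 0.25 and 1 gave 103 and 287. Same-numbered arrays correlated at -0.16 to 0.06 in their deviations, so the numbers were not taken as pairs; the replicate block gave 370 and 99. Leaving out each array gave 222 to 2013 probes, and 63 to 521 with the strains alike. Counts moved by more than 1.5 times without Dahl S replicates 2 (412 and 117) and 3 (404 and 113), Dahl R replicates 1 (281 and 87), 2 (222 and 63) and 3 (261 and 79), and SHR replicate 3 (2013 and 521). With normexp, 52 of 87 named genes and noncoding probes lost their call with the sign kept, and MRAK016990 changed sign, to 0.019. The cause was not tested. The percentile over probe means lost 62 of the calls, and the 6 arrays as 1 group lost 56. Asb3, Xdh, Resp18, Ly6i, Ly6al, Prcp, Homer2, Zfp53, Arl4d, MRAK052755, BC161882, MRAK038897 and MRFT35653 stayed past the threshold under every alternative that gave them a value. Signal over background limits the dim probes most on SHR replicate 3.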
